A study of Mus musculus with 8 samples.

Results

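The genes described here are 10 genes of lipid uptake and scavenging, read in 4T1 tumors with or without CD95. They are Cd36, Lpl, Fabp4, Fabp5, Plin2, Pparg, Msr1, Marco, Apoe and Abca1. The genes were chosen by name with earlier results of these same libraries in view, so their levels are a description, and their p-values say only where each gene stood among all genes of the fit. All 10 were found by symbol among 25006 gene identifiers, and all 10 were among the 15310 genes that passed the filter on low counts. RNA was read from tumors of 4T1, a Balb/c mouse mammary carcinoma line often taken to model triple-negative breast cancer, after injection into the fat pad and growth for at most 20 days. The hosts were NSG mice, which lack mature T, B and NK cells but keep macrophages and neutrophils, and Balb/c mice, which have an intact immune system. The hosts are also different mouse strains, so strain and immune status cannot be told apart in any host comparison. Each of 4 groups had 2 libraries. The wild-type groups held the parental line and a line stably expressing vCas9, and the knockout groups held CRISPR/Cas9 clones 54 and 69, which lack CD95, the death receptor encoded by Fas, per the labels. The 4 lines were grown in both hosts. The 2 libraries of a group were therefore different lines, the knockouts were 2 clones, and clonal origin and CD95 status cannot be told apart. Whether a library came from 1 tumor or from several is not stated, and p-values measure only the spread between these libraries of different lines.

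Cells take up fatty acids that lipoprotein lipase releases from lipoproteins, with the membrane protein CD36 as one route of entry, and small fatty acid binding proteins carry them inside the cell. Surplus lipid is stored in droplets coated by perilipins, and the nuclear receptor PPAR gamma switches on many genes of this pathway. Scavenger receptors such as MSR1, MARCO and CD36 bind modified lipoproteins, bacteria and dead-cell debris. Macrophages that load lipid this way return cholesterol to the outside through ABCA1 and apolipoprotein E, a route governed by the nuclear receptors called LXR. Lipid-handling macrophages are a well-known feature of tumors, and capillary endothelium and fat cells also use Cd36, Fabp4 and Lpl.

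In Balb/c tumors, the mean of the 2 knockout libraries was 3 to 5 times the wild-type mean for Cd36, Fabp4, Lpl and Apoe, although for Lpl and Apoe the log2 fold changes of 1.67 and 1.63 became 1.02 and 0.88 without clone 54. In NSG tumors, both knockout libraries lay below both wild-type libraries for 5 of the 9 genes other than Marco, which were Cd36, Fabp5, Plin2, Msr1 and Abca1, against 25.8% of all genes, and above them for Lpl, against 26.7% of all genes. In Balb/c, 1 of the 10 genes, Cd36, rose in knockout tumors at an edgeR adjusted p-value under 0.05, a direction in which 0.0457% of all tested genes were called, and 0.176% in either direction. The Cd36 call was lost without either wild-type line, without clone 54, with GC and length trends removed, and with only the libraries compared. In NSG, edgeR called 0 of the 10, against 0.0131% of all genes, while 6 of the 9 other than Marco had an unadjusted p-value under 0.05, against 14% of all genes, and DESeq2 called 4, against 2.41% of all genes. Marco is left out of the counts of 9 genes, and kept in those of 10. It is left out because it passed the filter on low counts only through NSG wild type, the group where it is high. Between hosts, 3 of the 10 genes were called lower in Balb/c in wild-type tumors, against 16.2% of all genes. With the cell line as a block, 1 of the 3 stayed called, in a fit that called 13.5% of all genes in either direction. One of the 3 is Marco, whose call is for the same reason no support. In the other direction, 5 of the 10 were called higher in Balb/c in knockout tumors, against 15.7% of all genes. The difference between the knockout effects of the 2 hosts was above 0 for each of the 9 genes counted with Marco left out, with a median of 1.45 on the log2 scale, against 51.5% of all genes and a median of 0.03. This was not particular to the 10 genes. All 8 macrophage markers listed below were also above 0, with a median of 1.88. Among 20 other scavenger receptors, 15 were above 0 and 5 below, with a median of 1.47, while all 7 neutrophil markers were below 0. For Lpl the sign turned without clone 54 in Balb/c, from 0.54 to -0.12. For that difference edgeR called 0 of the 10 genes, against 0% of all genes, while 7 of 10 had an unadjusted p-value under 0.05, against 22.5% of all genes, and DESeq2 called 4, against 7.05% of all genes. The comparisons share groups of libraries with each other and are therefore not independent.

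**Figure D1:**
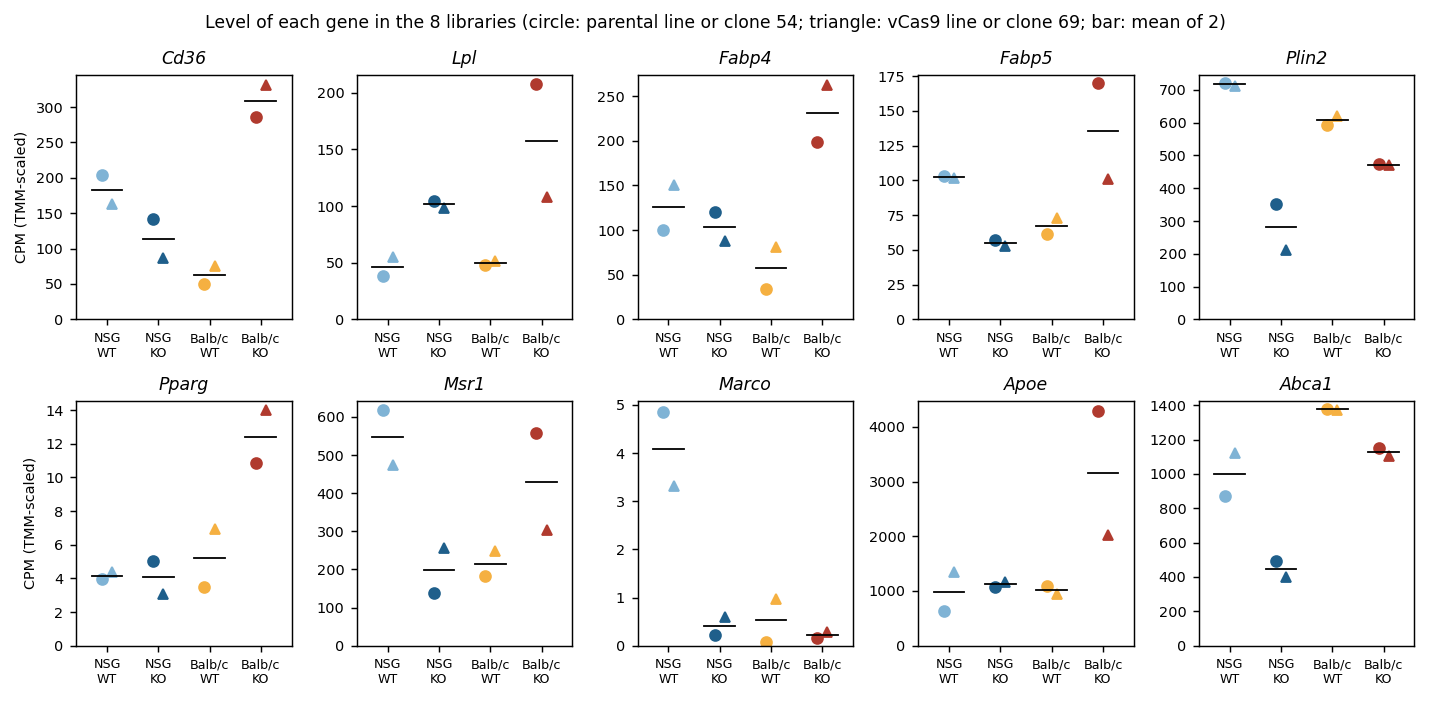
Level of each of the 10 genes in CPM (TMM-scaled) on a linear axis from 0, with 1 point per library and a bar at the mean of 2. The 2 Balb/c knockout libraries were the highest of the 8 for Cd36, Lpl, Fabp4, Pparg and Apoe, and the 2 NSG wild-type libraries were the highest for Plin2 and Marco.

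Library totals ranged from 8.68 M to 19.7 M counts, where M is the SI prefix mega, and 3 counts corresponded to 0.159 to 0.321 CPM, the count relative to a TMM-scaled total of 1 M. The libraries of every group differed by more than sampling noise, with chi-square values per degree of freedom from 18.1 to 115. That measure covers counting error only, and the libraries of a group were of different lines. Fas, the targeted gene, was at 12.9 to 33.9 CPM in NSG and 27.1 to 51.6 CPM in Balb/c. Its knockout log2 fold change was -0.42 in NSG and -0.70 in Balb/c, with edgeR adjusted p-values of 0.628 and 0.225. The knockout status therefore rests on the labels. Epithelial markers of 4T1, such as Epcam, were read in all 8 libraries. The 5 T cell markers matched by symbol summed to 3.53 to 7.95 CPM in NSG and 214 to 235 CPM in Balb/c.

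Per kilobase of the principal transcript, Apoe was the most abundant of the 10 genes in all 4 groups, with mean levels from 703 to 2240 CPM per kb. Msr1 and Plin2 followed at similar levels in NSG, at 384 and 380 CPM per kb in wild type and 139 and 149 CPM per kb in knockout. In Balb/c, Plin2 was next in wild type at 322 CPM per kb and Msr1 in knockout at 302 CPM per kb. Pparg and Marco were the least abundant. Pparg ranged from 2.30 to 7.03 CPM per kb and Marco from 0.117 to 2.12 CPM per kb. Abca1 has a long transcript of 10262 bases, and its 446 to 1375 CPM corresponded to 43.5 to 134 CPM per kb.

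Cd36 (ENSMUSG00000002944; chromosome 5, 17781690 to 17888801, reverse strand, GRCm38, protein-coding) encodes the fatty acid translocase, a class B scavenger receptor. Its levels were 204 and 163 CPM in NSG wild type, 141 and 86.9 CPM in NSG knockout, 49.3 and 75.1 CPM in Balb/c wild type, and 285 and 332 CPM in Balb/c knockout. The 4 groups did not overlap, and their order ran from Balb/c wild type at the bottom through NSG knockout and NSG wild type to Balb/c knockout. The knockout effect on the log2 scale was 2.31 ± 0.30 (SE, edgeR adjusted p = 0.0450) in Balb/c. In NSG it was -0.68 ± 0.29 (SE, adjusted p = 0.347), which did not pass the threshold, and the difference between the 2 effects was 2.99 ± 0.42 (SE, adjusted p = 0.0734). The host effect was -1.56 ± 0.30 (SE, adjusted p = 0.00906) in wild-type tumors and 1.44 ± 0.29 (SE, adjusted p = 0.00923) in knockout tumors. Cd36 was thus called lower in Balb/c among wild-type tumors and higher in Balb/c among knockout tumors. The Balb/c knockout call was lost without the parental line in Balb/c (adjusted p = 0.302), without the vCas9 line (0.0627), without clone 54 (0.0879), with GC and length trends removed (0.0521), and in a fit of only the 4 libraries compared (0.182). Over all 11 alternatives the log2 fold change stayed between 2.04 and 2.56, and the edgeR, limma or DESeq2 adjusted p-value ran from 3.10e-09 to 0.302. The wild-type host call was lost without the parental line in either host (adjusted p = 0.0675 in NSG and 0.0672 in Balb/c), and the knockout host call without clone 69 in NSG (0.0554).

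Upstream sequence was taken from RefSeq (GRCm38.p6), from a table that held windows for 6 of the 10 genes, 10 windows in all, of which the 250 bases before the start were used. The windows are given because Cd36 and Plin2 each hold the letters AGGTCA, on the reverse strand, which make up the half-site that nuclear receptors such as PPAR gamma and LXR bind as a direct repeat with RXR. The capitals mark the matched letters, written 5′ to 3′ on the gene's own strand and ending at the base before the start.
Cd36: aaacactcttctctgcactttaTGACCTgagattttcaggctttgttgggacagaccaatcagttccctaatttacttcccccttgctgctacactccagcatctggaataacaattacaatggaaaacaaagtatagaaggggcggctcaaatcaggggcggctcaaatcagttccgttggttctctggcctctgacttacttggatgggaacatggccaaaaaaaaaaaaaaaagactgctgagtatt
Plin2: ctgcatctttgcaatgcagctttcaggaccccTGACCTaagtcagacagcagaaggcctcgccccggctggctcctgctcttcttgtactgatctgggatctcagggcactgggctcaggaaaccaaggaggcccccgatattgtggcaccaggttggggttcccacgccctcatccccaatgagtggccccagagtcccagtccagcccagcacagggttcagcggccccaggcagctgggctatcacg
The Cd36 window was chr5:17835897-17836146 on the reverse strand and lay inside the annotated gene, since the start in the RefSeq table is not the first one of the gene. Its match lay 228 to 223 bases before that start. The Plin2 window was chr4:86670060-86670309 on the reverse strand, and its match lay 218 to 213 bases before the start. Searched on both strands, AGGTCA occurred in 4 of the 10 windows, the other two being windows of Pparg, and in 14% of all 32851 windows of the table. Repeats with 1 base between the half-sites (AGGTCANAGGTCA) occurred in 0 of the 10 windows and 0.0335% of all windows, and repeats with 4 bases between them (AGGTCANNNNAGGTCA) in 0 and 0.0152%. The core of PU.1, a macrophage factor (GAGGAAGT), occurred in 0 of the 10 windows and 2.44% of all windows. A TATA box (TATAAA) occurred in 3 windows, 1 each of Abca1, Pparg and Apoe, and in 12.4% of all windows.

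Lpl (ENSMUSG00000015568; chromosome 8, 68880491 to 68907448, forward strand), lipoprotein lipase, frees fatty acids from circulating lipoproteins. It was at 37.9 and 55.1 CPM in NSG wild type, 105 and 98.3 CPM in NSG knockout, 48.2 and 51.3 CPM in Balb/c wild type, and 208 and 108 CPM in Balb/c knockout. All 4 knockout libraries lay above all 4 wild-type libraries. The knockout effects on the log2 scale were 1.13 ± 0.31 (SE, edgeR adjusted p = 0.240) in NSG and 1.67 ± 0.31 (SE, adjusted p = 0.0564) in Balb/c. Neither passed the threshold with edgeR, while DESeq2 called both, at adjusted p-values of 0.0497 and 0.000282. The Balb/c effect was also called by edgeR with no filter on low counts (adjusted p = 0.00509) and without clone 69 (0.00334, log2 fold change 2.07), and was 1.02 without clone 54 (0.117). The difference was 0.54 ± 0.43 (SE, edgeR adjusted p = 0.485). The host effects were 0.10 in wild-type tumors and 0.64 in knockout tumors, with adjusted p-values of 0.825 and 0.149.

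Fabp4 (ENSMUSG00000062515; chromosome 3, 10204088 to 10208576, reverse strand) encodes the fatty acid binding protein of adipocytes, which capillary endothelium and macrophages also make. Its levels were 100.1 and 151 CPM in NSG wild type, 120 and 87.4 CPM in NSG knockout, 34.3 and 81.4 CPM in Balb/c wild type, and 198 and 263 CPM in Balb/c knockout. The Balb/c groups did not overlap, and the NSG groups did. The knockout effect on the log2 scale was 1.99 ± 0.41 (SE, edgeR adjusted p = 0.0564) in Balb/c and -0.28 ± 0.40 (SE, adjusted p = 0.779) in NSG. The host effects of -1.12 in wild-type and 1.15 in knockout tumors had adjusted p-values of 0.0672 and 0.0623. Each was called under 5 of 13 alternatives, DESeq2 (adjusted p = 0.0383 and 0.0160) and no filter (0.0340 and 0.0179) among them. With the cell line as a block, the adjusted p-values were 0.0525 and 0.0499. Leaving out 1 library, the wild-type value ran from -1.80 without the vCas9 line to -0.63 without the parental line in Balb/c, and only the former was called (adjusted p = 0.0320). The knockout value ran from 0.94 to 1.40 and was called in none of these fits.

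Fabp5 (ENSMUSG00000027533; chromosome 3, 10012548 to 10016607, forward strand), the epidermal fatty acid binding protein found in macrophages and many carcinomas, lies near Fabp4 on the same chromosome. It was at 103 and 102 CPM in NSG wild type, 57.0 and 52.9 CPM in NSG knockout, 61.2 and 73.3 CPM in Balb/c wild type, and 170 and 101 CPM in Balb/c knockout. Whether reads were shared with related copies of the gene was not tested. Fabp5 rose in Balb/c among knockout tumors, by 1.30 ± 0.25 (SE, edgeR adjusted p = 0.00680) on the log2 scale, and this call held under all 13 alternatives run for it. The other effects missed the threshold, with -0.61 (adjusted p = 0.0906) for host in wild-type tumors, -0.90 (0.239) for knockout in NSG and 1.01 (0.0602) for knockout in Balb/c. The difference of the knockout effects was 1.91 ± 0.35 (SE, adjusted p = 0.0794). In Balb/c, the clone 54 library had 1.69 times the Fabp5 of the clone 69 library, with no replicate of either clone.

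Plin2 (ENSMUSG00000028494; chromosome 4, 86648386 to 86670060, reverse strand) encodes perilipin 2, the common coat protein of lipid droplets outside fat cells. It was at 721 and 712 CPM in NSG wild type, 351 and 213 CPM in NSG knockout, 594 and 622 CPM in Balb/c wild type, and 473 and 472 CPM in Balb/c knockout. In both hosts the knockout libraries lay below the wild-type libraries, unlike those of Cd36, Fabp4 and Fabp5 in Balb/c. The knockout effect on the log2 scale was -1.35 ± 0.25 (SE, edgeR adjusted p = 0.156) in NSG and -0.36 ± 0.25 (SE, adjusted p = 0.351) in Balb/c. Neither passed the threshold, although DESeq2 called the NSG effect at an adjusted p-value of 0.000112. The host effect in knockout tumors was 0.74 ± 0.25 (SE, edgeR adjusted p = 0.0563).

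Pparg (ENSMUSG00000000440; chromosome 6, 115360951 to 115490399, forward strand) encodes PPAR gamma. It was low in every library, with 31 to 205 counts. Its levels were 3.95 and 4.39 CPM in NSG wild type, 5.03 and 3.08 CPM in NSG knockout, 3.48 and 6.93 CPM in Balb/c wild type, and 10.8 and 14.0 CPM in Balb/c knockout. Only the Balb/c knockout libraries stood apart from the others. Pparg rose in Balb/c among knockout tumors, by 1.61 ± 0.40 (SE, edgeR adjusted p = 0.0195) on the log2 scale. That call was lost with the cell line as a block (adjusted p = 0.0518), without clone 69 in NSG (0.120) and without clone 69 in Balb/c (0.0551). The knockout effect was 1.24 ± 0.39 (SE, adjusted p = 0.0876) in Balb/c and -0.04 ± 0.41 (SE, adjusted p = 0.976) in NSG. An antisense gene, Gm44079, overlaps the Pparg locus without sharing an exon base.

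**Figure D2:**
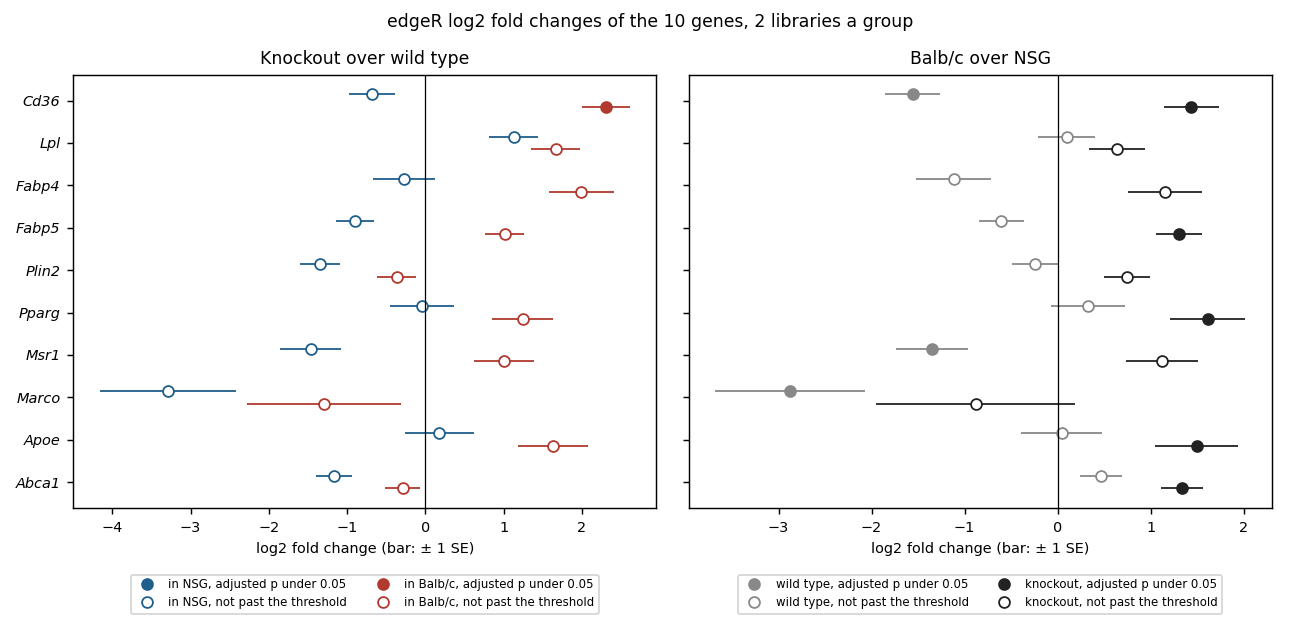
Log2 fold changes of the 10 genes from the edgeR fit with bars of 1 SE, for knockout over wild type in each host on the left and Balb/c over NSG in wild-type and knockout tumors on the right, where filled points had an adjusted p-value under 0.05. Cd36 had the widest gap between its knockout effects, at 2.31 in Balb/c against -0.68 in NSG, and Lpl the narrowest, at 1.67 against 1.13, an order that turned for Lpl without clone 54 in Balb/c.

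Msr1 (ENSMUSG00000025044; chromosome 8, 39581685 to 39642673, reverse strand) encodes the class A scavenger receptor of macrophages. It was at 618 and 475 CPM in NSG wild type, 139 and 257 CPM in NSG knockout, 182 and 247 CPM in Balb/c wild type, and 558 and 302 CPM in Balb/c knockout. NSG wild type and Balb/c knockout were the high groups and overlapped each other, and the other two groups overlapped at a lower level. Msr1 fell in Balb/c among wild-type tumors, by 1.35 ± 0.39 (SE, edgeR adjusted p = 0.0337) on the log2 scale. This call was lost with the cell line as a block (adjusted p = 0.104) and without either library of either group, where adjusted p-values ran from 0.0861 (without the vCas9 line in NSG) to 0.173 (without the parental line in Balb/c). Among knockout tumors the host effect was 1.12 ± 0.39 (SE, adjusted p = 0.0596). The knockout effects on the log2 scale were -1.47 ± 0.39 (SE, adjusted p = 0.232) in NSG and 1.004 ± 0.38 (SE, adjusted p = 0.127) in Balb/c. Their difference was 2.47 ± 0.55 (SE, adjusted p = 0.0909), and DESeq2 called it at an adjusted p-value of 0.000740. The NSG knockout effect was called under 1 of 11 alternatives. In Balb/c, the clone 54 library had 1.85 times the Msr1 of the clone 69 library, and in NSG 0.542 times, with no replicate of either clone in a host.

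Marco (ENSMUSG00000026390; chromosome 1, 120474538 to 120505024, reverse strand) encodes a class A scavenger receptor of restricted macrophage subsets, such as those of the lung and spleen. It was counted 70 and 40 times in NSG wild type, 2 and 6 times in NSG knockout, 1 and 14 times in Balb/c wild type, and 3 and 4 times in Balb/c knockout. NSG wild type, at 4.85 and 3.31 CPM, was thus the 1 group with Marco clearly above the level of 3 counts in both libraries. With the NSG wild-type libraries left out, Marco did not pass the filter on low counts, so a lower level in the groups compared with them was set by the filter and is a description. The host effect in wild-type tumors was -2.87 ± 0.81 (SE, edgeR adjusted p = 0.0315) on the log2 scale. That value rests on few counts in Balb/c, and the call was lost with the cell line as a block (adjusted p = 0.0781), without the parental line in Balb/c (0.111), and without the parental or the vCas9 line in NSG (0.146 and 0.0899). Without the vCas9 line in Balb/c, which had 14 of the 15 Balb/c wild-type counts, the log2 fold change was -5.37. The knockout effect in NSG was -3.29 ± 0.87 (SE, adjusted p = 0.232), the lowest of the 10 genes. In Balb/c it was -1.29 ± 0.98 (SE, adjusted p = 0.394), and without the vCas9 line it became 1.20, so no direction can be read from it.

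Apoe (ENSMUSG00000002985; chromosome 7, 19696109 to 19699188, reverse strand) encodes apolipoprotein E, which macrophages release with cholesterol. It was at 633 and 1346 CPM in NSG wild type, 1074 and 1164 CPM in NSG knockout, 1086 and 951 CPM in Balb/c wild type, and 4293 and 2016 CPM in Balb/c knockout. Those Balb/c knockout libraries were the highest of the 8, while the other 3 groups overlapped. Apoe rose in Balb/c among knockout tumors, by 1.50 ± 0.45 (SE, edgeR adjusted p = 0.0376) on the log2 scale. This call was lost with total-count scaling (adjusted p = 0.0566), with the cell line as a block (0.101), with only the libraries compared (0.0903), without clone 54 or clone 69 in NSG (0.135 and 0.134), and without clone 54 in Balb/c (0.165, log2 fold change 0.82). The knockout effect was 1.63 ± 0.45 (SE, edgeR adjusted p = 0.0699) in Balb/c, where it was 0.88 without clone 54 (0.275) and 2.08 without clone 69 (0.0129) and where DESeq2 called it (0.00416), and 0.18 ± 0.44 (SE, adjusted p = 0.875) in NSG.

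Abca1 (ENSMUSG00000015243; chromosome 4, 53030787 to 53159895, reverse strand) encodes the transporter that hands cholesterol to apolipoproteins and is a standard LXR target. It was at 874 and 1124 CPM in NSG wild type, 491 and 401 CPM in NSG knockout, 1376 and 1374 CPM in Balb/c wild type, and 1148 and 1103 CPM in Balb/c knockout. Its Balb/c knockout libraries lay below the Balb/c wild-type libraries, the opposite order to Apoe. Abca1 rose in Balb/c among knockout tumors, by 1.34 ± 0.23 (SE, edgeR adjusted p = 0.00436) on the log2 scale, and the call held under all 13 alternatives run for it. The knockout effect on the log2 scale was -1.16 ± 0.23 (SE, adjusted p = 0.165) in NSG and -0.29 ± 0.22 (SE, adjusted p = 0.406) in Balb/c. DESeq2 called the NSG effect at an adjusted p-value of 3.63e-05.

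The wider pathway was read in 6 lists of 107 other genes, drawn up from general knowledge with earlier results of these libraries known, of which 103 passed the filter. Changes of these genes are on the log2 scale. Between hosts in knockout tumors, 49 of the 103 genes (47.6%) were called by edgeR, 31 higher and 18 lower in Balb/c, against 31.1% of all genes. Without clone 54 or clone 69 in NSG, 35 and 25 of the pathway genes were called, against 20.9% and 15.6% of all genes, and without clone 54 or clone 69 in Balb/c, 47 and 46, against 29.3% and 29.6%. Of the 16 genes of cholesterol efflux and LXR tested, 12 rose and 1 fell, with a median log2 fold change of 1.12, against 0.02 for all genes. Ch25h, which makes 25-hydroxycholesterol, rose from 3.12 ± 2.90 CPM to 65.2 ± 49.7 CPM (SD, n = 2 each), which is 4.37 ± 0.79 (SE, edgeR adjusted p = 0.00559). Cyp27a1, a sterol hydroxylase, rose by 2.18 ± 0.37 (SE, adjusted p = 0.00411). Apoc1, an apolipoprotein gene beside Apoe, was the 1 that fell, by 2.09 ± 0.55 (SE, adjusted p = 0.0234), a call lost without clone 54 or clone 69 in NSG (highest adjusted p = 0.0878).

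Of 20 other scavenger receptors, 9 rose and 4 fell in Balb/c among knockout tumors, with a median of 0.92. Of all genes, 15.7% were called higher and 15.4% lower, with a median of 0.02. Mrc1, the mannose receptor CD206, rose by 2.34 ± 0.49 (SE, edgeR adjusted p = 0.00964), from 599 ± 135 CPM to 3032 ± 2174 CPM (SD, n = 2 each), a call lost without clone 54 in NSG (adjusted p = 0.0577). Timd4, a receptor for dying cells on resident macrophages, rose by 3.40 ± 0.40 (SE, adjusted p = 0.00111). Cd5l, a macrophage protein and LXR target, fell by 4.38 ± 0.43 (SE, adjusted p = 0.000597), from 18.2 ± 9.40 CPM to 0.871 ± 0.109 CPM (SD, n = 2 each). Scara3 fell by 3.38 ± 0.32 (SE, adjusted p = 0.000509), so the scavenger receptors did not move as one.

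The remaining lists were mixed in that comparison, with called shares of 27.8% for lipid uptake and hydrolysis and 29.4% for the PPAR list, near the 31.1% of all genes, and of 40% for lipid droplets and 41.2% for cholesterol synthesis. Lipid uptake and hydrolysis had 2 higher and 3 lower of 18, among them Lipa, the lysosomal acid lipase, at 1.13 ± 0.30 (SE, edgeR adjusted p = 0.0243), and Lrp1, a lipoprotein receptor, at -1.18 ± 0.24 (SE, adjusted p = 0.00875). Lipid droplets and triglyceride synthesis had 3 higher and 3 lower of 15, with Bscl2, which encodes the droplet protein seipin, at 1.28 (adjusted p = 0.00258) and Plin4, a perilipin of fat cells, at -3.62 (adjusted p = 0.00344). Acsl1, which activates fatty acids, rose by 0.93 ± 0.16 (SE, adjusted p = 0.00405), Gpat3, an enzyme of triglyceride synthesis, rose by 1.15 ± 0.35 (SE, adjusted p = 0.0376), and Slc27a3, a fatty acid transporter family member, fell by 1.19 ± 0.34 (SE, adjusted p = 0.0326). PPAR receptors, partners and oxidation targets had 4 higher and 1 lower of 17. Cebpa, a transcription factor of myeloid and fat cells, rose by 2.06 ± 0.38 (SE, adjusted p = 0.00611) and Ucp2, a mitochondrial carrier, by 1.25 ± 0.19 (SE, adjusted p = 0.00280). Cholesterol synthesis and LDL uptake had 1 higher and 6 lower of 17, with a median of -0.38. Lss, lanosterol synthase, fell by 1.03 ± 0.33 (SE, adjusted p = 0.0471), and Mvd, a decarboxylase of the same route, rose by 1.09 ± 0.21 (SE, adjusted p = 0.00734). Of the genes named here, the calls of Lipa (highest adjusted p = 0.144), Gpat3 (0.157), Slc27a3 (0.132) and Lss (0.299) were lost without clone 69 in NSG. Each was also lost without 1 or more of the other clone libraries, which was clone 54 in Balb/c for Lipa, clone 69 in Balb/c for Gpat3 and Lss, and clone 69 in Balb/c and clone 54 in NSG for Slc27a3. With the cell line as a block, 28 of the 103 genes were called, against 18.8% of all genes.

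Between hosts in wild-type tumors, 37 of the 103 genes were called, 15 higher and 22 lower in Balb/c. That is 35.9%, against 31.5% of all genes, and 12 were called with the cell line as a block, against 13.5%. Without the parental or the vCas9 line in NSG, 3 and 5 of the pathway genes were called, against 5.45% and 8% of all genes, and without the parental or the vCas9 line in Balb/c, 5 and 7, against 8.16% and 9.44%. Of the genes named for wild-type tumors, Slc27a1 and Cd5l stayed called in all 4 of these fits. Cebpb was lost without the parental line in NSG (adjusted p = 0.0589), Angptl4 without either line in Balb/c, Lipe and Abcg1 in 3 of the 4 fits, and the others in all 4. Of all genes, 16.2% were called lower. The lower calls included 7 of 17 genes of cholesterol synthesis and LDL uptake and 5 of 20 other scavenger receptors, such as Cd5l at -3.16 ± 0.41 (SE, edgeR adjusted p = 0.00262). Olr1, the lectin-like receptor for oxidized LDL, rose by 2.38 ± 0.55 (SE, adjusted p = 0.0167), from 44.2 ± 1.19 CPM to 230 ± 48.6 CPM (SD, n = 2 each). Abcg1, the partner of Abca1 in cholesterol export, rose by 1.11 ± 0.22 (SE, adjusted p = 0.00988), and Angptl4, an inhibitor of lipoprotein lipase, fell by 1.60 ± 0.31 (SE, adjusted p = 0.00958). G0s2, which blocks the main triglyceride lipase and is abundant in neutrophils, rose by 2.14 ± 0.65 (SE, adjusted p = 0.0404). In the same comparison the sum of 7 neutrophil markers was 4.40 times as high in Balb/c, and its part in the changes of G0s2, Olr1 and Cebpb was not tested.

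Other called genes of the lists in wild-type tumors went in both directions. Of the fatty acid transporter family, Slc27a4 rose by 1.96 ± 0.47 (SE, edgeR adjusted p = 0.0195) and Slc27a1 fell by 1.62 ± 0.20 (SE, adjusted p = 0.00239). Lipe, hormone-sensitive lipase, rose by 1.16 ± 0.23 (SE, adjusted p = 0.0111). In triglyceride synthesis and storage, Gpat3 rose by 1.43 ± 0.34 (SE, adjusted p = 0.0193), while Agpat2 and the droplet protein Plin3 fell by 0.83 and 0.78 (adjusted p of 0.0365 and 0.0224). Cebpb, a transcription factor of myeloid cells, rose by 1.17 ± 0.19 (SE, adjusted p = 0.00564). Among genes of fatty acid oxidation, Slc25a20, the carnitine carrier, rose by 0.63, and Cpt2 and Acadm fell by 0.85 and 0.78 (adjusted p of 0.0469, 0.0252 and 0.0270). Abca7, a relative of Abca1, rose by 0.98 (adjusted p = 0.0144), Apoc1 fell by 2.29 (adjusted p = 0.0226) and the scavenger receptor gene Scarf2 fell by 1.96 (adjusted p = 0.0142). In sterol synthesis, Mvd rose by 0.997 and Fdps fell by 1.26 (adjusted p of 0.0119 and 0.0128).

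In the knockout comparisons, edgeR called 0 of the 103 genes in either host, against 0.0131% of all genes in NSG and 0.176% in Balb/c. In Balb/c, 45 of them had an unadjusted p-value under 0.05, which is 43.7% against 30.9% of all genes, and DESeq2 called 26, against 16% of all genes. In NSG, 19 had an unadjusted p-value under 0.05, which is 18.4% against 14%, and DESeq2 called 3, against 2.41% of all genes. The list medians in Balb/c were 0.85 for other scavenger receptors, 0.54 for cholesterol efflux and LXR, 0.45 for the PPAR list, 0.43 for lipid uptake and hydrolysis, -0.01 for cholesterol synthesis and -0.58 for lipid droplets, against 0.06 for all genes. In the lipid droplet list 6 of 15 genes were above 0 and 9 below, and 4 had an unadjusted p-value under 0.05, of which Plin3 (0.76), Agpat2 (0.87) and Bscl2 (0.87) were above 0 and Gpat3 (-0.92) below.

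**Figure D3:**
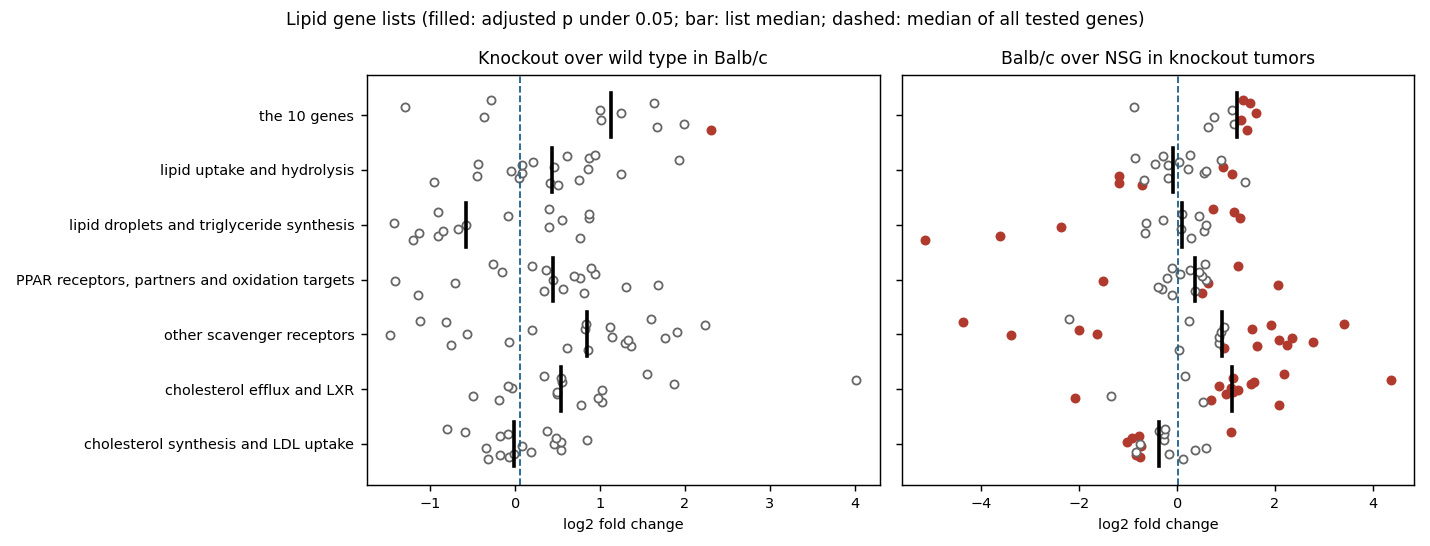
Log2 fold changes of the 10 genes and of the 6 lists, with 1 point per tested gene, filled where the edgeR adjusted p-value was under 0.05, a black bar at each list's median and a dashed line at the median of all tested genes. In knockout tumors, Balb/c over NSG (right), 12 of 16 efflux genes were called higher, against 15.7% of all genes. There, 6 of 17 cholesterol synthesis genes were called lower, against 15.4% of all genes. For knockout over wild type in Balb/c (left), Cd36 was the 1 filled point.

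Markers of the cell types that express these genes moved between the same groups. The 8 macrophage markers summed to 2953 and 2932 CPM in NSG wild type, 1619 and 1881 CPM in NSG knockout, 2395 and 2909 CPM in Balb/c wild type, and 7312 and 4226 CPM in Balb/c knockout. In Balb/c all 8, including Adgre1, had a knockout log2 fold change above 0, against 53.3% of all genes, with a median of 1.24, and edgeR called 0 of them, against 0.176% of all genes. Between hosts in knockout tumors, edgeR called 7 of the 8 higher in Balb/c, with a median of 1.72, against 15.7% of all genes. In that comparison 5 of 6 dendritic cell markers were also called higher. Called lower there were 5 of 6 fibroblast markers and 5 of the 8 adipocyte markers tested, against 15.4% of all genes. The 8 endothelial markers, Pecam1 among them, summed to 188 and 271 CPM in Balb/c wild type and 553 and 487 CPM in Balb/c knockout. In NSG they were at 243 to 547 CPM. The 9 adipocyte markers summed to 9.77 CPM or less in each Balb/c library and to 20.6 and 28.5 CPM in NSG wild type and 58.5 and 62.6 CPM in NSG knockout, and Adipoq was at 0.510 to 1.31 CPM in Balb/c. Lep had 0 counts in both Balb/c wild-type libraries. Epithelial markers of 4T1 summed to 1059 and 1320 CPM in NSG wild type and to 2901 and 1908 CPM in NSG knockout. The 7 neutrophil markers summed to 7522 and 5864 CPM in Balb/c wild type, 532 and 2538 CPM in Balb/c knockout, 1349 and 1693 CPM in NSG wild type, and 3088 and 1465 CPM in NSG knockout. In NSG, Lpl was thus higher in the group in which adipocyte and epithelial markers were also higher. Fibroblast markers were higher there too, with mean sums of 8116 CPM in wild type and 12531 CPM in knockout. Mean sums of monocyte, neutrophil, endothelial, skeletal muscle, and red cell and platelet markers were also higher in NSG knockout. In Balb/c, Lpl was higher in knockout, while the mean adipocyte sum was 9.16 CPM in wild type and 6.87 CPM in knockout. In bulk tumor RNA, fewer cells of a type and less RNA per cell cannot be told apart, and the part of these cell types in the levels of the 10 genes and of the pathway genes was not tested.

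**Figure D4:**
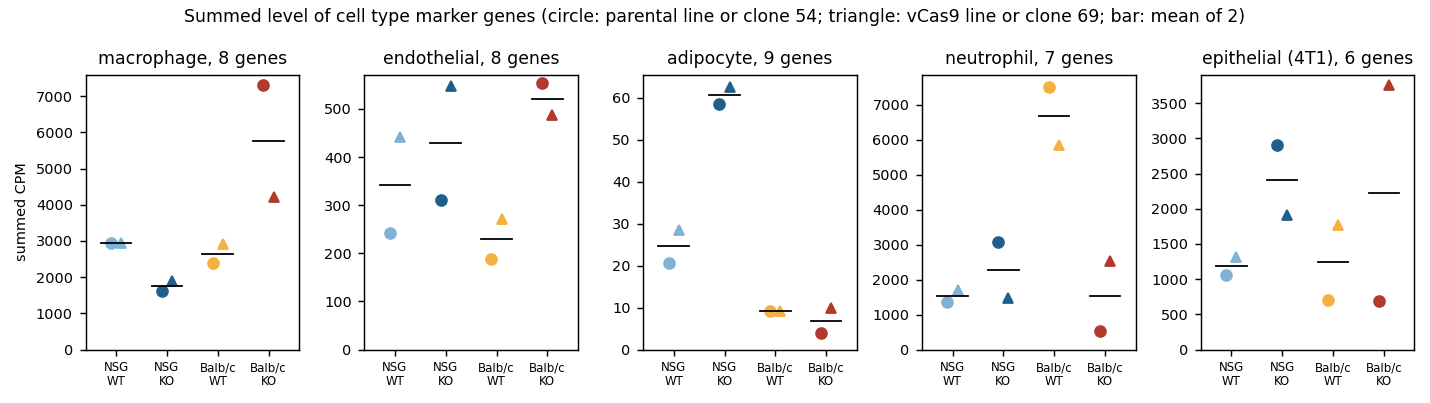
Summed CPM of the marker genes of 5 cell types in each library on a linear axis from 0, with a bar at the mean of 2. Macrophage markers were highest in Balb/c knockout at 7312 and 4226 CPM, adipocyte markers were at 9.77 CPM or less in Balb/c, and the 2 Balb/c knockout libraries were far apart for epithelial markers, at 694 and 3754 CPM.

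The levels were also divided by the macrophage marker sum, and are given as CPM per 1000 CPM of macrophage markers. Cd36 was at 20.6 and 25.8 in Balb/c wild type and at 39.0 and 78.5 in Balb/c knockout, with means of 62.3 in NSG wild type and 66.7 in NSG knockout. Balb/c wild type was thus the group that lay below the others on this scale. Fabp4 ran from 14.3 to 28.0 in Balb/c wild type and from 27.1 to 62.1 in Balb/c knockout, so its libraries overlapped. The ratio of the Balb/c knockout mean to the Balb/c wild-type mean was 2.53 for Cd36, 2.11 for Fabp4, 1.43 for Lpl, 1.36 for Apoe and 1.25 for Pparg. It was 0.929 for Fabp5, 0.919 for Msr1, 0.399 for Abca1 and 0.382 for Plin2. For Marco, with 1 to 14 counts in these libraries, no direction can be read. Per endothelial marker sum it was 2.22 for Cd36 and 1.86 for Fabp4. These ratios were not tested, and say nothing of which cells held the RNA.

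The 2 knockout clones differed in Balb/c, and not in the same way as in NSG. In Balb/c, clone 54 had more Apoe than clone 69 (2.13 times), more Lpl (1.92 times), more Msr1 (1.85 times) and more Fabp5 (1.69 times), and its macrophage marker sum was 1.73 times as high. It had less Cd36 (0.860 times), Fabp4 (0.755 times) and Pparg (0.774 times), and about as much Plin2 (1.003 times) and Abca1 (1.04 times). In NSG, clone 54 had 1.63 times as much Cd36 as clone 69, 1.37 times as much Fabp4, 1.63 times as much Pparg, 0.542 times as much Msr1 and 0.922 times as much Apoe, and its macrophage marker sum was 0.861 times as high. The fibroblast marker sum of clone 54 was 3.13 times that of clone 69 in Balb/c and 1.01 times in NSG. Its epithelial, neutrophil, and red cell and platelet sums were 0.185, 0.210 and 0.251 times as high in Balb/c. In NSG those sums were 1.52, 2.11 and 1.82 times as high. Each of these ratios is between 2 libraries, with no replicate of a clone in a host. Without clone 69, edgeR called 6 of the 10 genes for knockout against wild type in Balb/c, against 24.8% of all genes, and 4 of the 10 for the difference between hosts, against 15.1% of all genes. The remaining clone 54 library was then assumed to vary like the other groups. Without clone 54, edgeR called 0 of the 10 genes for knockout against wild type in Balb/c, against 0.00636% of all genes.

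Over the 8 libraries, the pattern of Fabp4 was the closest to that of Cd36 among the 10 genes. The measure was the root mean square distance between log2 CPM values centred on each gene's mean, computed for 11431 other genes with a mean of at least 5 CPM. Fabp4 was at a distance of 0.341, below that of every one of those genes. Next among the 10 were Fabp5 at 0.606 and Pparg at 0.668, and Marco was the farthest at 1.65. The 5 closest genes outside the 10 were Rnf128, a ubiquitin ligase, at 0.355, Tmem205 at 0.398, Tmem159 at 0.403, Akr1c13, an aldo-keto reductase, at 0.403 and Slc25a10, the mitochondrial dicarboxylate carrier, at 0.411. Rnf128 was at 22.1 and 22.0 CPM in NSG wild type, 19.8 and 16.0 CPM in NSG knockout, 8.92 and 10.6 CPM in Balb/c wild type, and 39.9 and 27.4 CPM in Balb/c knockout. These distances describe 8 libraries that share lines and hosts, and were not tested.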

How the data were processed

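Each library was deposited as 1 file of raw counts over Ensembl genes. Per the submitters' processing notes, the authors used cutadapt 1.13, STAR, HTSeq 0.6.1p1 and DESeq2, with the builds mm10 and hg19 named and no roles given. The strand setting is not given in the sources used here. Identifiers were matched to symbols in a gene name table (24942 of 25006) and to GENCODE M21 (24991).

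Counts were fitted in R 4.3.3 with edgeR 4.0.16 (filterByExpr, TMM, quasi-likelihood test) as 4 group means over 8 libraries, with 4 residual degrees of freedom. P-values were adjusted by Benjamini and Hochberg over 15310 genes, with a threshold of 0.05. The SE was derived from the fold change and the F statistic. Lists and markers were summed or counted, with no set test. DESeq2 1.42.0, limma 3.58.1 (voom), other scalings, a trend correction, replicate blocks and left-out libraries were tried. The procedure was tested on simulated data for host in wild-type tumors and for knockout in Balb/c. Of simulated 2-fold changes, 0% and 1% were recovered. Of simulated 4-fold changes, 68.5% and 68% were recovered, with 8.05% and 7.48% false calls. A change of 2-fold could therefore go uncalled in such simulated data. Each simulation changed 200 genes, while the real fit for host in wild-type tumors called 4825. The recovered shares therefore do not describe that host comparison, where some changes under 2-fold were called, such as Plin3 at -0.78 on the log2 scale.

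The 10 genes and the lists were chosen with earlier results of these data known. All 10 were named, as were, per list and comparison, up to 2 called genes per direction with the largest change, no overlap between groups and at least 5 CPM in the higher group. Of each marker list mentioned, the first gene and any gene at 0 could be named, and for Cd36 the 5 genes with the closest pattern. Some genes that this rule names are not reported here.

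Each line was grown in both hosts, per the labels' titles, so lines pair the host comparisons. The difference between the 2 lines of a group correlated between hosts, across 15310 genes, at 0.09 for the wild-type lines and -0.35 for the knockout clones.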

Additional observations from a re-analysis of the deposited data

How the results depend on the processing

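Of 638 values of the 10 genes under alternatives, 537 kept their sign and their side of the threshold, 60 passed it newly, 26 no longer passed it and 15 changed sign. All 9 called effects kept their sign. The cause of these shifts was not tested, beyond the smaller number of libraries where some were left out.

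Counts of the 10 genes called moved as follows, each with the share of all genes called by the same fit. For host in wild-type tumors (3), they were 5 with total-count scaling (34.1%), DESeq2 (32.3%) or only the libraries compared (46.7%), 1 when the line was a replicate block (13.5%), and 0 to 3 leaving out 1 library (5.45% to 9.44%). For host in knockout tumors (5), they were 8 with no filter (23.8%) or DESeq2 (32.4%), and 3 to 6 leaving out 1 library (15.6% to 29.6%). For knockout in NSG (0), they were 1 with no filter (0.638%) and 4 with DESeq2 (2.41%). For knockout in Balb/c (1), they were 5 with no filter (8.52%) or DESeq2 (16%), 0 with GC and length trends removed (0.0784%) or only the libraries compared (0%), and 0 to 6 leaving out 1 library (0% to 24.8%). For the difference (0), they were 4 with no filter (3.24%) or DESeq2 (7.05%), and 0 to 4 leaving out 1 library (0% to 15.1%).

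Counts of the 103 pathway genes moved likewise. For host in wild-type tumors (37), they were 12 with the block, 57 with only the libraries compared and 3 to 7 leaving out 1 library. For host in knockout tumors (49), they were 28 with the block, 20 with only the libraries compared and 25 to 47 leaving out 1 library. For knockout in NSG (0), they were 1 with no filter and 3 with DESeq2. For knockout in Balb/c (0), they were 23 with no filter, 26 with DESeq2 and 0 to 43 leaving out 1 library. For the difference (0), they were 15 with no filter, 18 with DESeq2 and 0 to 30 leaving out 1 library. The 43 and 30 calls came without clone 69 in Balb/c. A crossed pairing of the clones, chosen after seeing the data, gave 8 and 59 calls for host in knockout tumors (35.5% of all genes) and 4 and 11 for the difference (2.01%), of the 10 and of the 103 genes. The block changed no other call of the 10 genes than those given.

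The 15 sign changes were all of uncalled values. For host in wild-type tumors, Lpl became -0.0617 with total-count scaling and -0.0516 with trends removed, and ran from -0.155 to 0.379 leaving out 1 library. Pparg then ran from -0.188 to 0.728. Apoe became -0.121 with total-count scaling and ran from -0.410 to 0.672. For host in knockout tumors, Marco ran from -1.41 to 0.0254. For knockout in NSG, Pparg became 0.0226 with total-count scaling and ran from -0.437 to 0.268, Fabp4 from -0.546 to 0.0426 and Apoe from -0.270 to 0.815. For knockout in Balb/c, Marco ran from -2.10 to 1.20, and for the difference Lpl ran from -0.123 to 0.944.

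Total-count scaling moved the median of all genes from -0.08 to -0.24 for host in wild-type tumors and from 0.02 to -0.17 in knockout tumors, and the share of calls that were higher from 48.6% to 36.5% and from 50.5% to 37.3%. RLE size factors gave 57.9% in wild-type tumors. Marco, at 1 to 14 counts outside NSG wild type, is limited by depth.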
